A study of Chlorocebus sabaeus with 3 samples.

Results

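The genes described here encode the proteins of the mitochondrial ribosome, and they were taken by name as every gene called MRPL or MRPS followed by a number and at most 1 letter. Of the 33994 genes listed for each library, 72 met this rule, 44 named MRPL for the large subunit and 28 named MRPS for the small subunit. Their RNA was measured as cell-free RNA in amniotic fluid supernatant, the fluid left after cells have been removed, from 3 pregnancies of the vervet monkey Chlorocebus sabaeus. The status labels give 1 library each to a stillborn pregnancy (sex label M), a spontaneous abortion (sex label NA) and a live outcome (sex label F). Gestational age, treatment and maternal identity were not used here, and no status has a second library. The comparisons therefore set 1 library against another, without a test, and their 95% intervals cover counting error only.

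Mitochondria carry their own small genome, which encodes core subunits of the respiratory chain, and translate it on ribosomes of their own. The RNA of these ribosomes comes from the mitochondrial genome, whereas all of their proteins are encoded in the nucleus, made in the cytosol and imported. Some of the proteins descend from those of the bacterial ancestor and others are found in mitochondria alone. In humans, inherited defects of several of them cause combined deficiencies of oxidative phosphorylation that affect heart, liver and brain from birth.

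By the structure of the human mitochondrial ribosome, 46 of the 72 products belong to the large and 25 to the small subunit. MRPS18A and MRPS30 are named for the small subunit but sit in the large one. MRPS36, also known as KGD4, is now assigned to the 2-oxoglutarate dehydrogenase complex and not to the ribosome. Of the large subunit genes, 29 have a bacterial counterpart and 17 are specific to mitochondria, and of the small subunit genes 15 and 10. The classes follow the structural names, by which MRPS18A and MRPS18B count as specific to mitochondria although relatives of a bacterial protein. MRPL35, MRPL38, MRPL45, MRPL53, MRPL58 and MRPS21 were not found under these names. For MRPL38 and MRPL45, gene identifiers of the files led to the RefSeq table, and MRPL58 has the older name ICT1, so these 3 are given with the related genes.

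All 72 genes were detected in all 3 libraries. Levels are deposited RPKM, reads scaled to gene length and to the assigned reads of the library. Values in a row of 3 are always given for stillborn, spontaneous abortion and alive, in this order. The numbers of reads behind them ranged from 6 to 4888 per gene and library. At least 30 reads were found in every library for 68 of the 72. The 3 libraries held 17749954 (stillborn), 29926352 (spontaneous abortion) and 20220899 (alive) assigned reads, totals that were solved from the deposited values. Mean RPKM over the libraries spanned 225.2-fold, with a median of 15.0, and 45 genes had a mean of at least 10 and 2 a mean under 1. RPKM of at least 1 was reached by 68, 70 and 71 genes.

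MRPL17, a large subunit protein with a bacterial counterpart, stood far above the other members. It was at RPKM 177 (stillborn), 202 (spontaneous abortion) and 228 (alive). Its mean of 202 ± 25.4 (SD over the 3 libraries of different status) made up 12.9% of the summed mean RPKM of all 72 genes. MRPL13, another bacterial-type protein of the large subunit, followed at RPKM 90.2 (stillborn), 95.3 (spontaneous abortion) and 79.4 (alive). MRPL51, which is specific to mitochondria, was at RPKM 45.6, 54.7 and 68.6. MRPL17 and MRPL51 were highest in the alive library. MRPL13 was lowest there, and which loss was highest turned with the scaling.

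The small subunit was led by MRPS15, the counterpart of a bacterial protein that binds ribosomal RNA early in assembly, at RPKM 56.6 (stillborn), 51.8 (spontaneous abortion) and 56.7 (alive). The stillborn and alive RPKM values were nearly equal, while the scaled ratio of stillborn to alive was 1.12 (95% interval 1.02 to 1.22). MRPL3, which lies near the peptidyl transferase centre where peptide bonds form, was at RPKM 66.5, 54.4 and 43.2. It had the reverse order to MRPL51, with the stillborn library highest. MRPL15 was at RPKM 41.7, 49.9 and 46.7, and MRPL11, at the base of the stalk that recruits translation factors, at 40.8, 36.1 and 59.8. MRPS14, a protein of the small subunit head, was at RPKM 42.6, 38.0 and 50.2, the mitochondria-specific MRPL43 at 37.2, 35.6 and 49.8, and MRPS24, the counterpart of a bacterial protein beside the messenger RNA entry, at 38.3, 32.5 and 49.8. MRPL11, MRPS14, MRPL43 and MRPS24 were highest in the alive and lowest in the spontaneous abortion library. Together, the 10 genes with the highest means held 43.1% of the summed mean RPKM.

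At the other end, MRPL55 had the lowest mean, at RPKM 0.618 (stillborn), 0.670 (spontaneous abortion) and 1.40 (alive). MRPL54 was at RPKM 0.473, 1.87 and 0.415, on 6, 40 and 6 reads, so that its spontaneous abortion value stood above both others. MRPL39 was at RPKM 0.932, 1.13 and 1.05, close to equal in the 3 fluids. MRPL28, of bacterial type, was at RPKM 0.715, 0.818 and 1.87 and highest in the alive library. MRPS18B, one of the 3 mitochondrial relatives of a single bacterial protein, was at RPKM 1.29, 1.60 and 1.07 on 20, 42 and 19 reads, and MRPS16, in which a human disease variant is known, at 1.25, 3.45 and 2.20 on 14, 65 and 28 reads. Both were highest in the spontaneous abortion library. MRPL4 was at RPKM 2.06, 2.30 and 3.30, MRPL44, which has the fold of a ribonuclease, at 2.91, 3.68 and 2.70, MRPL14 at 2.03, 2.69 and 5.28 and the mitochondria-specific MRPS27 at 2.51, 3.72 and 4.14. MRPL4, MRPL14 and MRPS27 shared the order of stillborn below spontaneous abortion below alive, and MRPL44 did not.

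**Figure D1:**
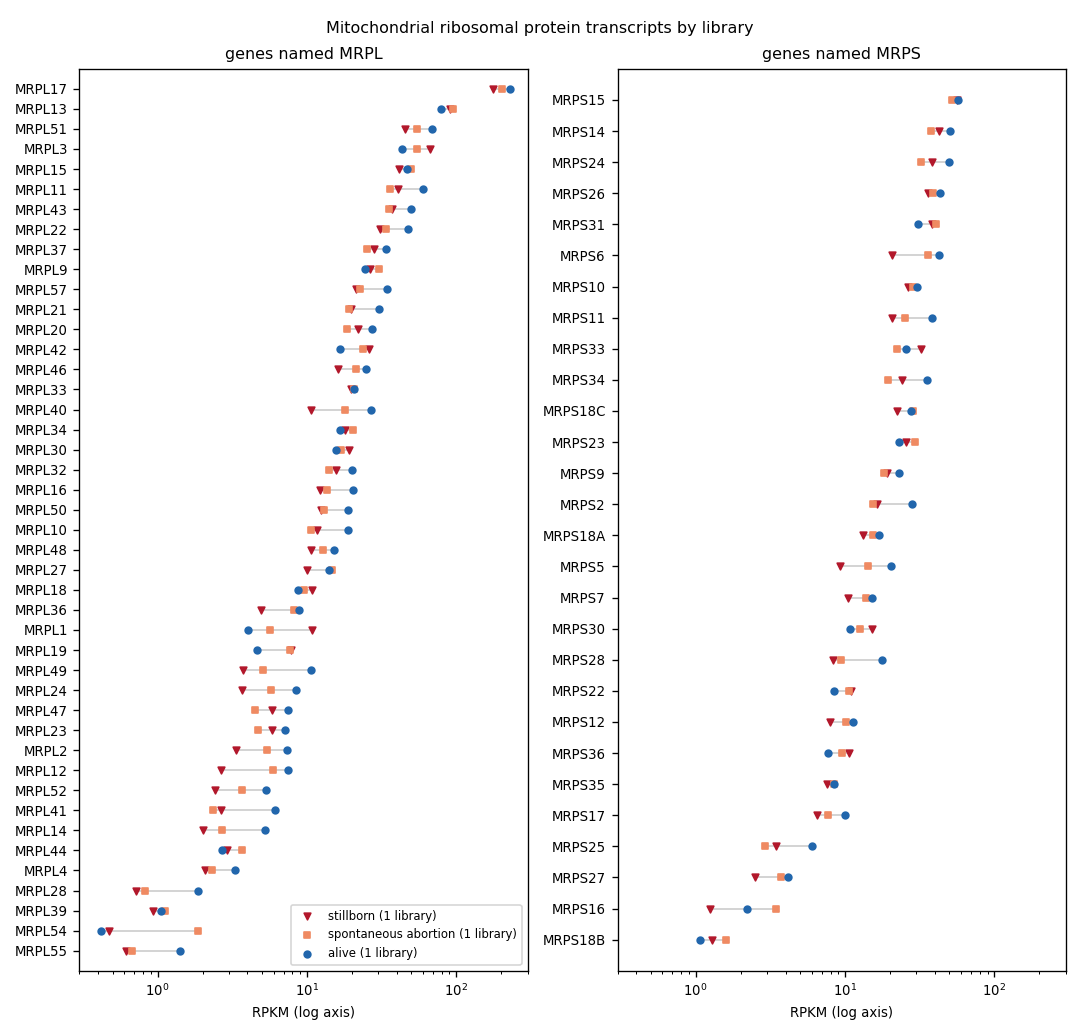
RPKM of the 72 mitochondrial ribosomal protein genes in each library on a log axis, with 44 MRPL genes on the left and 28 MRPS genes on the right, each sorted by mean. Every point is 1 library and a grey line joins the lowest and highest of a gene. MRPL17 leads in all 3 libraries, between 177 and 228, and for most genes the alive library is the rightmost point.

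Levels between genes depend on the gene length by which reads were divided. The lengths solved from the values ran from 285 bases for MRPS18C to 15601 for MRPL39, with a median of 1297.5. Each solved length is a lower bound, as a factor shared with the reads cannot be seen. Of the 72 genes, 70 were found by symbol in RefSeq's gene table (assembly mChlSab1.0.hap1). Across these 70 genes, which are not independent replicates, length and the number of RefSeq transcripts had a Spearman rho of 0.604. MRPL39 had 24 transcripts, and its 258, 526 and 331 reads were more than the 29, 43 and 76 of MRPL41 although its RPKM was lower. MRPL41, a mitochondria-specific protein that also binds BCL2 in human cells, was divided by 613 bases. Mean RPKM and length had a rho of -0.333 across the 72 genes. Ratios of a gene between libraries do not contain the length.

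**Figure D2:**
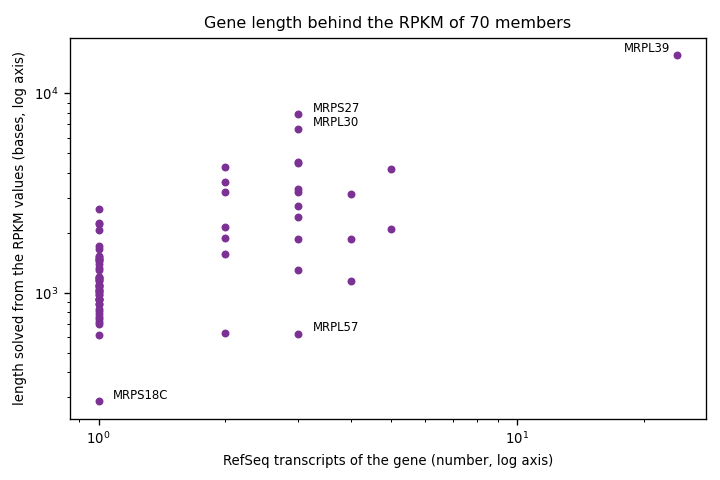
Length solved from the RPKM values against the number of RefSeq transcripts, both on log axes, for the 70 members found in the RefSeq table, 1 point per gene. MRPL39, with 24 transcripts and 15601 bases, lies at the far end, and most genes with 1 transcript lie at the lower left.

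As a group the genes took a larger share of the RNA in the alive library than in either loss. Their summed RPKM was 1432, 1508 and 1748, or 0.329%, 0.396% and 0.439% of the summed RPKM of all genes. The large subunit held 0.214%, 0.259% and 0.284%, and the small subunit 0.112%, 0.134% and 0.153%. After scaling by the trimmed mean of M-values (TMM), which sets the bulk of genes equal between libraries, the sums were 1529, 1479 and 1669. The alive library was highest on both scales, while the order of the losses turned with the scale. In a bulk fluid, fewer cells that shed such RNA and less of it per cell cannot be told apart.

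The genes kept much the same rank in every fluid. Spearman's rho of member RPKM was 0.971 for the stillborn and spontaneous abortion, 0.954 for the spontaneous abortion and alive and 0.934 for the stillborn and alive libraries (72 genes each). Over the 10229 genes whose mean RPKM was 1 or more it was 0.932, 0.945 and 0.881. The points share the gene lengths of the files. The coefficient of variation over the libraries had a median of 21.1% for members and 22.4% for those 10229 genes, and among members it ran from 2.53% for MRPL33 to 89.6% for MRPL54. The scaled levels of 40 of 69 assessed members (58.0%) stayed within 1.5-fold from the lowest to the highest library, against 43.5% of all 12934 genes assessed. Within 2-fold were 59 of 69 (85.5%), against 72.3%. Here a gene was assessed when each pair of libraries held at least 30 reads in one of the pair. The assessed genes were not matched to the members by level, so counting error in low genes may widen their spread.

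In 46 of the 69 members (66.7%) the alive library was the highest of the 3, against 38.0% of all genes. The stillborn library was highest in 14 (20.3%), against 36.5%, and the spontaneous abortion library in 9 (13.0%), against 25.5%. Scaled by total assigned reads, 49 members (71.0%) were highest in the alive library, against 43.9% of all genes. The order stillborn below spontaneous abortion below alive was followed by 25 of 69 (36.2%), against a background of 27.6%, and the reverse order by 12 (17.4%), against 24.7%. MRPL40 and MRPS6 were of the first kind. MRPL40, a mitochondria-specific protein of the large subunit, was at RPKM 10.6, 17.9 and 26.7, and MRPS6, of the small subunit, at 20.6, 35.9 and 42.4. MRPL1, MRPL3, MRPL42 and MRPS22 were of the second.

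The alive library was the one most often highest in both subunits. It was highest for 30 of 45 large subunit (66.7%) and 16 of 23 small subunit genes (69.6%), against 38.0% of all genes. By origin it was highest for 30 of 43 genes with a bacterial counterpart (69.8%) and 16 of 25 specific to mitochondria (64.0%). The difference between these classes was not tested. Of the stalk proteins, MRPL10 was at RPKM 11.7, 10.6 and 18.9 and MRPL12, which in human cells also binds the mitochondrial RNA polymerase, at 2.66, 5.90 and 7.45. Around the exit tunnel, through which new peptides leave towards the inner membrane, MRPL22 was at RPKM 31.0, 33.9 and 47.4, MRPL24 at 3.69, 5.72 and 8.40 and MRPL47 at 5.84, 4.51 and 7.43. These genes, like MRPL11 at the stalk base and MRPL23 at the tunnel, were highest in the alive library. MRPS12, a protein of the decoding centre, was at RPKM 7.89, 10.2 and 11.4, also highest in the alive library. The 5 genes assigned here to the peptidyl transferase region did not all share this. They summed to RPKM 94.1, 90.5 and 88.3, of which MRPL3 alone was 66.5, 54.4 and 43.2. Their median log2 ratio of stillborn to alive was -0.50, with 4 of the 5 below 0. MRPL2, MRPL4 and MRPL16 were highest in the alive library, MRPL3 in the stillborn and MRPL27 in the spontaneous abortion.

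In the RefSeq gene order, MRPL23 lies between TNNT3 and IGF2 among protein-coding genes. MRPL23 was at RPKM 5.84 (stillborn), 4.72 (spontaneous abortion) and 7.11 (alive), while IGF2, the abundant fetal growth factor, was at 34904, 26073 and 18289. The order of the libraries was not that of IGF2, which was highest in the stillborn. MRPS11 and MRPL46 are the only pair of members that are direct neighbours in that table. MRPS11 was at RPKM 20.6, 25.1 and 38.3 and MRPL46 at 16.1, 21.3 and 24.7, both in the order stillborn below spontaneous abortion below alive.

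The comparison of the stillborn with the alive library asks how these transcripts differed in the fluid of a stillbirth from that of a live outcome. More members were lower than higher in the stillborn library, by moderate ratios. Of 69 members with at least 30 reads in either library, 50 (72.5%) had a scaled ratio below 1, against 51.2% of all 13496 genes assessed. The 95% interval lay below 1 for 37 (53.6%), against a background of 38.7%, and above 1 for 16 (23.2%), against 37.2%. The median log2 ratio was -0.24 over the 70 members whose mean RPKM was 1 or more, and -0.01 over the 10229 such genes. The interquartile range ran from -0.57 to 0.14 for members and from -0.47 to 0.46 for all genes.

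A gene was counted as past 2-fold when its scaled ratio was at least 2 in either direction, its interval excluded 1 and the higher library held at least 30 reads. Past 2-fold were 8 of 69 members (11.6%) as lower in the stillborn library, near the background of 12.5%. As higher there was 1 (1.45%), against 13.1%. At 1.5-fold 17 members (24.6%) were lower, against 23.6%, and 6 (8.70%) higher, against 22.9%. At 4-fold no member was lower or higher, against 3.23% and 4.71%. Scaling by total assigned reads instead lowers the median of all genes to -0.17 and that of members to -0.40, and 13 members were then past 2-fold as lower, against 16.1% of all genes.

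MRPL49, a mitochondria-specific protein of the large subunit, was at RPKM 3.76 (stillborn), 5.10 (spontaneous abortion) and 10.7 (alive). The alive library was the one apart, and the stillborn value was 2.53-fold lower (95% interval 1.85 to 3.53) than it. MRPL12 of the stalk, given above, was 2.50-fold lower (95% interval 1.80 to 3.52) in the stillborn library. Its spontaneous abortion value lay nearer to the alive than to the stillborn one. MRPL28 was 2.33-fold (1.63 to 3.40) and MRPL14 2.33-fold (1.76 to 3.12) lower in the stillborn library, and in both the losses lay close together below the alive library. MRPL40 was 2.26-fold (1.97 to 2.60) lower, in even steps over the 3 libraries. MRPL41, at RPKM 2.67, 2.34 and 6.13, was 2.06-fold (1.32 to 3.27) lower, MRPL24 2.04-fold (1.67 to 2.50) and MRPL55 2.03-fold (1.43 to 2.92). Past 2-fold as lower were thus 8 of 45 assessed large subunit (17.8%) and 0 of 23 small subunit genes, against 12.5% of all genes. At 1.5-fold the shares were 24.4% and 26.1%, against 23.6%. The difference between the subunits was not tested.

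Just short of 2-fold were MRPL2, MRPS5 and MRPL52. MRPL2, at the peptidyl transferase region, was at RPKM 3.33, 5.43 and 7.35, and 1.97-fold (1.60 to 2.46) lower in the stillborn than in the alive. MRPS5 was at RPKM 9.28, 14.4 and 20.4 and 1.96-fold (1.60 to 2.41) lower, and MRPL52 at 2.42, 3.68 and 5.28 and 1.95-fold (1.52 to 2.52) lower. In all 3 the spontaneous abortion value lay between the others. MRPS28, MRPS6 and MRPS11 of the small subunit were 1.91-fold (1.55 to 2.38), 1.84-fold (1.62 to 2.08) and 1.67-fold (1.46 to 1.90) lower in the stillborn library.

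In the other direction, MRPL1, whose bacterial counterpart forms the flexible arm where spent transfer RNA leaves the ribosome, was at RPKM 10.8 (stillborn), 5.70 (spontaneous abortion) and 4.01 (alive). The stillborn library stood above both others and was 3.02-fold higher (95% interval 2.49 to 3.67) than the alive. MRPL19 was at RPKM 7.78, 7.66 and 4.66, with both losses above the alive library, and 1.87-fold (1.48 to 2.37) higher in the stillborn. MRPL42, at RPKM 26.1, 23.8 and 16.8, was 1.74-fold (1.61 to 1.88) higher and MRPL3 1.72-fold (1.60 to 1.86). MRPS30, also described as a programmed cell death protein, was at RPKM 15.3, 12.6 and 10.8 and 1.58-fold (1.37 to 1.81) higher. MRPS36, at RPKM 10.7, 9.60 and 7.64, was 1.57-fold (1.30 to 1.90) higher. MRPS22, whose human defects cause infantile disease, was at RPKM 10.9, 10.7 and 8.50 and 1.43-fold (1.30 to 1.58) higher. MRPS33, at RPKM 32.1, 22.2 and 25.7, was 1.40-fold (1.30 to 1.51) higher, and its spontaneous abortion value lay below the alive one.

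**Figure D3:**
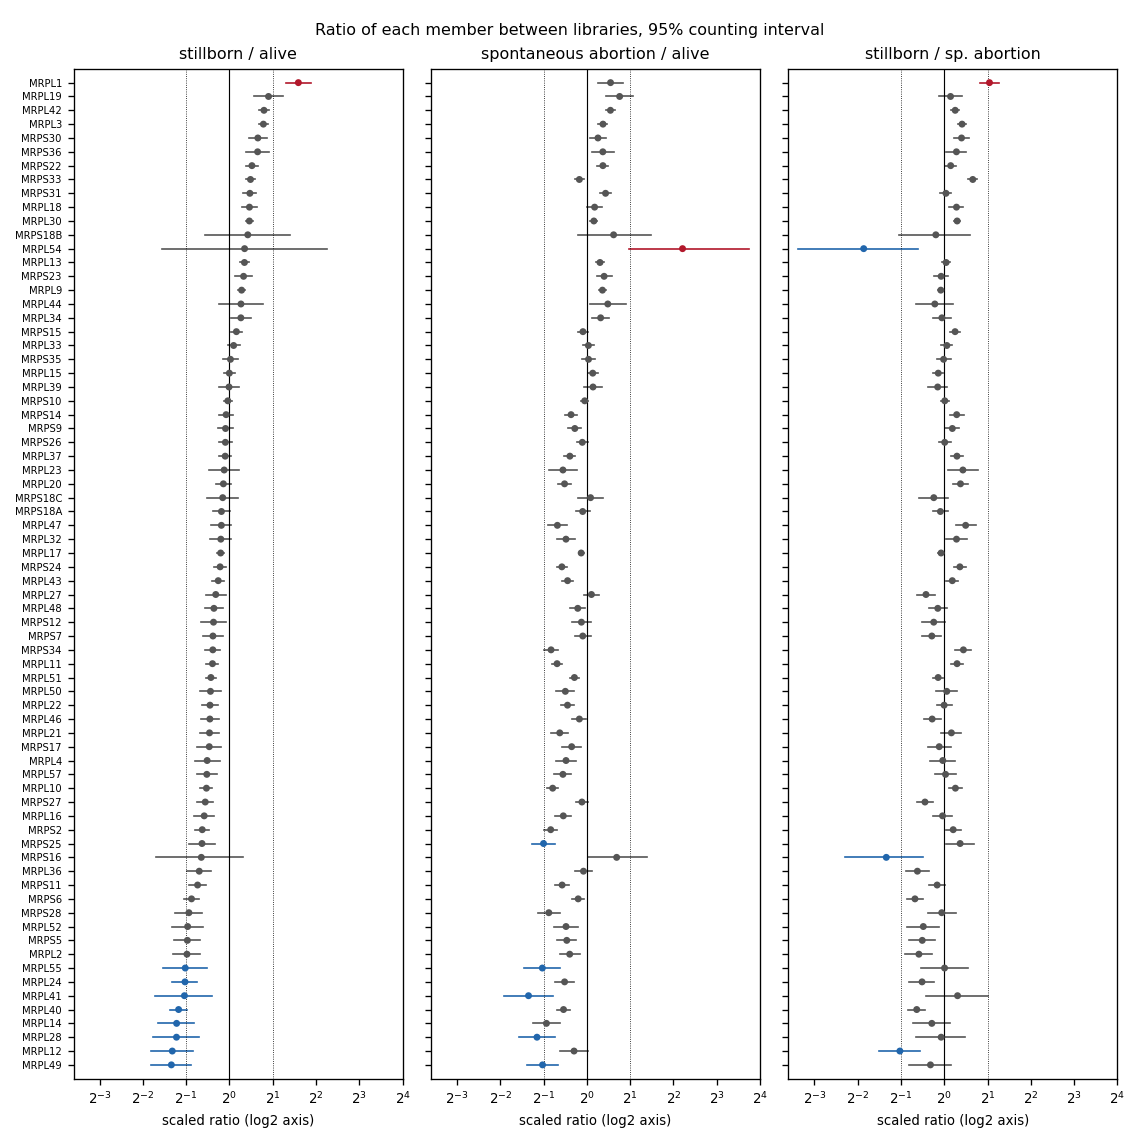
Scaled ratio of each of the 72 members between 2 libraries on a log2 axis, sorted in every panel by the ratio of stillborn to alive, with the exact 95% counting interval as a line. Red marks genes past 2-fold as higher and blue those past 2-fold as lower, and dotted lines mark 2-fold. The panel of stillborn against alive holds 8 blue genes and 1 red gene, that of spontaneous abortion against alive 5 and 1, and that of the losses 3 and 1.

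Other RNA differed between the same libraries, and its part in the ratios of the members was not tested. Cycling cell genes were all 15 found and summed to RPKM 83.4, 210.0 and 265, none of them at 0. Their median log2 ratio of stillborn to alive was -1.56 over 14 of them. Past 2-fold as lower were 13 of 15, beside 12.5% of all genes. For spontaneous abortion to alive the median was -0.34, with 0 of 15 past 2-fold as lower, beside 5.71%. Of 12 squamous epithelium genes 9 were found, summing to RPKM 1046, 526 and 247 with none at 0. Past 2-fold as higher in the stillborn against the alive library were 6 of 8 assessed, beside 13.1% of all genes. Of 12 myeloid genes 11 were found, summing to 78.9, 16.8 and 20.7, with S100A8 at 0 in the alive library. In the same pair 8 of 10 assessed myeloid genes were past 2-fold as higher. The 5 erythroid genes found summed to 0.216, 2.01 and 0.213, with ALAS2, the first enzyme of heme synthesis in red cells, at 0 in all 3 libraries. The 7 hepatocyte genes found summed to 207, 261 and 258 with none at 0.

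The spontaneous abortion was set against the alive library to ask the same of the other loss. Here too more members were lower than higher, and the shift was of like size. A scaled ratio below 1 was found for 48 of 72 members (66.7%), against 48.9% of all 13851 genes assessed. The interval lay below 1 for 39 (54.2%), against 33.5%, and above 1 for 18, against 34.4%. The median log2 ratio was -0.20 over 70 members and -0.01 over all 10229 genes, with an interquartile range of members from -0.53 to 0.13. The alive library is shared with the preceding comparison, so the shifts are not independent of each other.

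Past 2-fold as lower were 5 of 72 members (6.94%), near the background of 5.71%, and 1 (1.39%) was higher, against 7.68%. At 1.5-fold 13 (18.1%) were lower, against 13.1%, and 3 (4.17%) higher, against 15.4%. At 4-fold no member was lower and 1 was higher, against 1.51% and 2.30%.

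MRPL41 was 2.54-fold lower (95% interval 1.73 to 3.79) when the spontaneous abortion was set against the alive library. MRPL28 was 2.22-fold (1.67 to 2.98) lower, MRPL55 2.04-fold (1.53 to 2.73) and MRPL49 2.03-fold (1.60 to 2.59). For these 4, whose RPKM values stand above, the alive library lay above both losses. MRPS25, a mitochondria-specific protein of the small subunit, was at RPKM 3.45, 2.91 and 5.98 and 2.00-fold (1.66 to 2.42) lower in the spontaneous abortion. Short of 2-fold, MRPL14 was 1.91-fold (1.54 to 2.38) lower. MRPS28 was at RPKM 8.29, 9.39 and 17.7, with the losses close together, and 1.84-fold (1.54 to 2.19) lower, and MRPS2 at 16.4, 15.4 and 28.3 and 1.78-fold (1.61 to 1.97) lower. MRPS34, a mitochondria-specific protein, was at RPKM 24.2, 19.4 and 35.4 and 1.77-fold (1.59 to 1.98) lower.

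The gene past 2-fold as higher was MRPL54, 4.63-fold (1.95 to 13.4) above the alive library on 40 against 6 reads. It was no longer past 2-fold once all libraries were thinned to the smallest total. MRPL19 was 1.69-fold (1.37 to 2.11) higher, and MRPS16 1.61-fold (1.02 to 2.61) higher, with the spontaneous abortion library above both others. MRPS18B was 1.54-fold (0.874 to 2.80) higher, an interval that includes 1. MRPL1 was 1.46-fold (1.20 to 1.78) and MRPL42 1.46-fold (1.36 to 1.57) higher, each between the alive and the stillborn value. MRPL44 was 1.40-fold (1.05 to 1.89) higher. MRPS31, at RPKM 38.5, 40.7 and 31.0, was 1.35-fold (1.23 to 1.48) higher, with both losses above the alive library.

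Between the losses the members were centred near equality. The median log2 ratio of stillborn to spontaneous abortion was -0.01 over 70 members and -0.02 over all genes, with an interquartile range of members from -0.20 to 0.27. A scaled ratio below 1 was found for 37 of 72 (51.4%), against 53.3% of 13855 genes. The interval lay above 1 for 24 (33.3%), against 31.7%, and below 1 for 18, against 36.1%. Past 2-fold were 3 members (4.17%) as lower in the stillborn library, against 7.48%, and 1 (1.39%) as higher, against 7.54%. At 1.5-fold 7 (9.72%) were lower, against 17.1%, and 2 (2.78%) higher, against 15.5%, and at 4-fold none in either direction, against 1.65% and 2.81%.

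MRPL54 was 3.63-fold lower (95% interval 1.53 to 10.5) in the stillborn than in the spontaneous abortion library, on 6 against 40 reads. MRPS16 was 2.53-fold (1.41 to 4.88) lower, on 14 against 65 reads, and MRPL12 2.03-fold (1.48 to 2.85) lower. Of those short of 2-fold, MRPS6 was 1.60-fold (1.42 to 1.81), MRPL40 1.55-fold (1.35 to 1.79) and MRPL24 1.43-fold (1.17 to 1.75) lower. MRPL2 was lower with a 95% interval of 1.22 to 1.86. MRPL36, a small protein of bacterial type, was at RPKM 4.90, 8.20 and 8.90 and 1.54-fold (1.28 to 1.85) lower. In MRPL12, MRPS6 and MRPL36 the stillborn library was the one apart, below the other two.

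MRPL1 was 2.06-fold higher (95% interval 1.77 to 2.41) in the stillborn than in the spontaneous abortion library, and scaled by total assigned reads it was no longer past 2-fold. MRPS33 was 1.58-fold (1.47 to 1.70) higher, with the spontaneous abortion library the lowest of the 3. MRPL47 was 1.41-fold (1.20 to 1.66) and MRPS34 1.36-fold (1.20 to 1.54) higher, MRPL23 1.35-fold (1.06 to 1.72) and MRPL3 1.33-fold (1.25 to 1.42). MRPS30 was 1.32-fold (1.17 to 1.49) higher, and MRPL20, at RPKM 22.1, 18.5 and 27.2, 1.30-fold (1.15 to 1.46). In MRPL47, MRPS34, MRPL23 and MRPL20 the spontaneous abortion library was lowest and the alive library highest, while MRPL3 and MRPS30 were highest in the stillborn.

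For some members the interval included 1 in every pair. MRPL33, a small protein of bacterial type, was at RPKM 19.7 (stillborn), 20.5 (spontaneous abortion) and 20.6 (alive). MRPS35 was at RPKM 7.62, 8.39 and 8.39 and MRPS10 at 26.6, 28.7 and 30.5. In each of the 3 genes the libraries lay close together. The intervals of MRPL39, MRPS18A and MRPS26 also included 1 in every pair. Those of MRPS18C and, on few reads, MRPS18B did so too, but were wide and do not show equal levels. For stillborn to alive the 95% interval of MRPS18C, on 112 against 159 reads, was 0.699 to 1.15. That of MRPS18A reached 1 narrowly, at 0.772 to 1.002. For MRPS10 the 95% interval of the ratio of stillborn to alive ran from 0.911 to 1.04 and for MRPL33 from 0.970 to 1.18, the counting precision of these values.

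The members not yet named all lay within 2-fold in every pair. MRPL16 and MRPL27 belong to the peptidyl transferase region and were at RPKM 12.2, 13.7 and 20.5 and at 10.049, 14.659 and 13.998, the first highest in the alive and the second in the spontaneous abortion library. MRPL32, whose maturation by a mitochondrial protease precedes ribosome assembly in mouse and yeast, was at RPKM 15.60, 13.96 and 20.04, highest in the alive library. MRPS7, whose bacterial counterpart organises the small subunit head, was at RPKM 10.4, 13.8 and 15.2, MRPS9 at 19.2, 18.3 and 22.8 and MRPS17 at 6.488, 7.654 and 10.03, and all were highest in the alive library. The same library was highest for MRPL21 at RPKM 19.6, 19.1 and 30.3 and for the mitochondria-specific MRPL37 at 28.3, 25.1 and 33.9, MRPL48 at 10.6, 12.8 and 15.3, MRPL50 at 12.4, 13.0 and 18.9 and MRPL57 at 21.4, 22.8 and 34.4. The alive library was instead the lowest for MRPL9 at RPKM 26.4, 30.4 and 24.3, MRPL18 at 10.8, 9.62 and 8.73, MRPL30 at 19.1, 16.9 and 15.5, MRPL34 at 17.9, 20.3 and 16.7 and MRPS23 at 25.7, 29.4 and 23.0.

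Genes that work beside the mitochondrial ribosome were read from lists of 82 names, of which 70 were found. Of 8 names listed for other proteins of the ribosome, 7 were found. The 8 include KGD4, the other name of the member MRPS36. The median log2 ratio of the 7 was -0.35 for stillborn to alive and -0.28 for spontaneous abortion to alive. None of them was past 2-fold in any pair. CHCHD1 of the small subunit was at RPKM 28.0, 28.6 and 45.4, and GADD45GIP1 of the large subunit at 6.46, 9.11 and 12.4. ICT1, the release factor built into the large subunit, was at RPKM 14.7, 16.7 and 21.1. In all 3 the alive library was highest. DAP3, the protein of the small subunit that binds GTP, was at 1.27, 1.88 and 1.51, highest in the spontaneous abortion. Of the pair found through their identifiers, MRPL38 was at 4.21, 3.39 and 4.27 and MRPL45, which anchors the ribosome to the inner membrane, at 0.537, 1.75 and 1.36 on 8, 44 and 23 reads.

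The 15 translation factors found had a median log2 ratio of 0.37 for stillborn to alive over 12 of them, the opposite sign to the members, and 0.08 for spontaneous abortion to alive. MTRF1, a release factor, was at RPKM 4.42 (stillborn), 2.87 (spontaneous abortion) and 1.62 (alive) and was past 2-fold at 3.04-fold higher (95% interval 2.66 to 3.49) than the alive library. TUFM, the elongation factor that brings transfer RNA to the ribosome, went the other way at RPKM 10.9, 16.8 and 26.1, and was past 2-fold as lower in the stillborn, at 2.14-fold (1.96 to 2.34). The 20 aminoacyl-tRNA synthetases and related enzymes found had a median of -0.12 and -0.04 over 15 of them. Past 2-fold as lower in the stillborn against the alive library were 2 of 20 assessed, beside 12.5% of all genes. Among the 2 was MARS2, the methionyl enzyme, at RPKM 0.213, 0.803 and 0.985.

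Of the assembly and ribosomal RNA modification genes, 22 were found. Beside 12.5% of all genes, 4 of the 21 assessed were past 2-fold as lower in the stillborn against the alive library. They were DDX28, an RNA helicase, at RPKM 0.373, 1.31 and 1.06, the GTPase MTG1 at 2.38, 2.68 and 5.54, and the pseudouridine synthase family members RPUSD4 at 0.677, 1.64 and 2.02 and TRUB2 at 4.21, 8.66 and 10.5. MTG1 was past 2-fold as lower in both losses against the alive library, and the others in the stillborn alone. The 6 genes of mitochondrial transcription and messenger RNA stability had medians of -0.41 and -0.09. POLRMT, the mitochondrial RNA polymerase, was at RPKM 0.617, 1.65 and 1.71, 2.48-fold (1.75 to 3.56) lower in the stillborn than in the alive library. LRPPRC, which stabilises mitochondrial messenger RNA, was at RPKM 12.8, 21.7 and 28.1, and its ratio of stillborn to alive fell short of 2-fold. Over all 70 related genes, 8 of 68 assessed (11.8%) were past 2-fold as lower and 1 (1.47%) as higher in stillborn against alive, beside 12.5% and 13.1% of all genes. Against the alive library, the spontaneous abortion had 1 of 69 lower (1.45%) and 0 higher, beside 5.71% and 7.68% of all genes. Between the losses 5 of 69 were lower (7.25%) and 1 higher (1.45%) in the stillborn, beside 7.48% and 7.54%.

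Other sets of ribosomal and mitochondrial genes are set beside the members. Most of the 76 nuclear-encoded genes of the respiratory chain encode parts of complexes that also hold proteins made by the mitochondrial ribosome. The 76 genes had median log2 ratios of -0.20 for stillborn to alive, -0.24 for spontaneous abortion to alive and 0.06 between the losses. These lie close to the -0.24, -0.20 and -0.01 of the mitochondrial ribosomal proteins. In the respiratory chain the alive library was highest for 52 of 75 genes (69.3%), against 38.0% of all genes. The 79 genes named as cytosolic ribosomal proteins had medians of 0.18, -0.28 and 0.52 over 76 of them. For 23 of 76 assessed (30.3%) the alive library was highest, against the same 38.0%. The 79 genes held 14.2%, 12.2% and 14.1% of the summed RPKM. The differences between these lists were not tested.

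**Figure D4:**
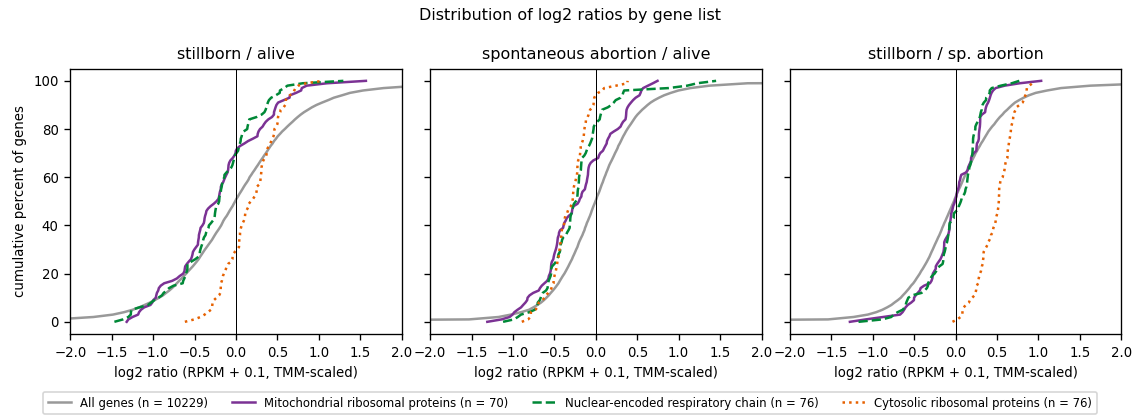
Cumulative percent of genes against their log2 ratio, on TMM-scaled log2(RPKM + 0.1), for each pair of libraries, with all 10229 genes of sufficient level in grey. The curve of the 70 mitochondrial ribosomal protein genes runs left of all genes over most of its range in both panels against the alive library and near the curve of the respiratory chain, and the cytosolic curve lies to the right of both over most of its range in the panels of the stillborn library.

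**Figure D5:**
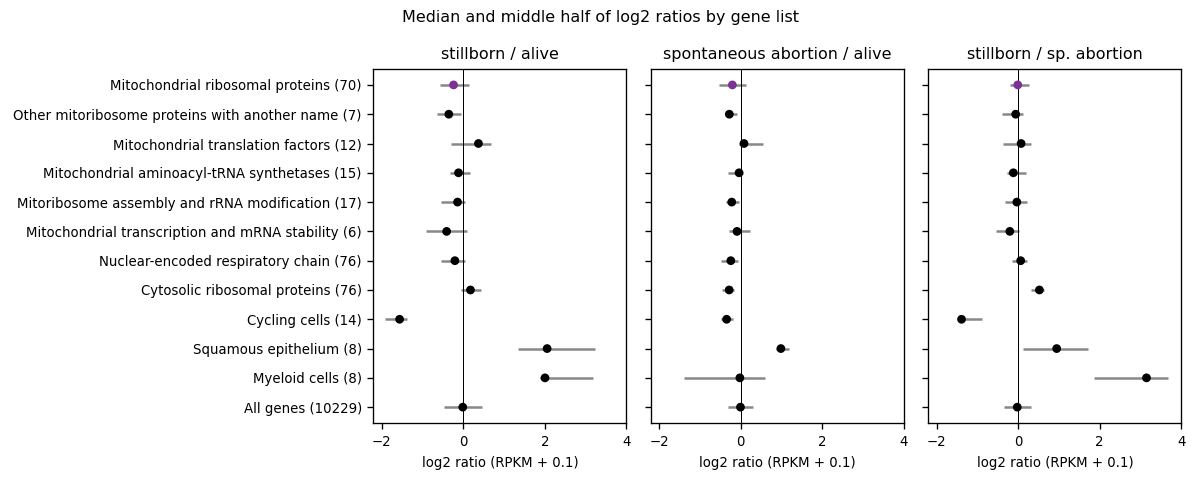
Median log2 ratio (point) and interquartile range (grey line) of each list in the 3 pairs, on TMM-scaled log2(RPKM + 0.1), with the number of genes of mean RPKM at least 1 in parentheses. The mitochondrial ribosomal proteins, in purple, lie at -0.24, -0.20 and -0.01, near the respiratory chain, while the cycling, squamous and myeloid lists lie farther from 0 in the stillborn panels.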

How the data were processed

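Cell-free RNA of 3 amniotic fluid supernatants was amplified as cDNA by the SPIA method and sequenced on a HiSeq2500, per the labels' protocols. Tools listed without a role are bcl2fastq 2.17, STAR and HTSeq, per the submitters' processing notes. No genome build, annotation or strand setting is given in the sources used here, so reads of close paralogs, pseudogenes and antisense partners cannot be told apart. The values the authors deposited are RPKM, 1 per gene and library, with neither lengths nor totals beside them. Their unit was read from the values.

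Library totals were solved as the numbers that make reads whole, and the smallest gene length that gave whole reads in all 3 libraries was taken (lengths up to 300000 bases). This held for 99.97% of the 23276 genes above 0 within the rounding of the printed digits. Read numbers are lower bounds. They add up to 96.6% to 97.1% of the totals. TMM factors from these reads were 0.936 (stillborn), 1.02 (spontaneous abortion) and 1.05 (alive).

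Ratios carry exact Clopper-Pearson 95% intervals conditioned on the pair's combined reads, unadjusted for the number of genes. Without molecular identifiers they cover counting error only. List medians use log2(RPKM + 0.1), which understates ratios of low genes, over genes whose mean RPKM was 1 or more. Genes with at least 30 reads in either library of a pair were assessed, and the shares of all genes were not matched to the members by level. Python 3.11.15, NumPy 2.4.6, SciPy 1.17.1 and pandas 2.3.3 were used, and the steps were tested on simulated data. Members and lists were chosen with earlier results of these data known. Named were the 10 highest and 10 lowest means, the 8 highest and 8 lowest ratios of each pair, every member past 2-fold, and examples of a role, a neighbour, an equal level or a related list, chosen after their values were seen. The values of 1 related gene are not reported here. The alternatives were other scalings, folds, read minimums, thinning, pseudocounts and filters.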

Additional observations from a re-analysis of the deposited data

How the results depend on the processing

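The sign changed with the setting for the median log2 ratio of stillborn to spontaneous abortion, -0.0088 in the main setting, which became 0.0075 with factors from the median of ratios and 0.0299 over members whose mean RPKM was 5 or more. Scaled by total assigned reads it was -0.1303, beside a median of -0.1405 over all genes. The medians against the alive library kept their sign under every setting run. For stillborn over alive they ran from -0.3986, scaled by total assigned reads (all genes -0.1693), to -0.1977, and for spontaneous abortion over alive from -0.2432 to -0.1948.

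The counts of members past the fold moved with the fold, by construction. At 1.5-fold they were 6 higher and 17 lower for stillborn over alive, 3 and 13 for spontaneous abortion over alive, and 2 and 7 between the losses. At 4-fold they were 0 and 0, 1 and 0, and 0 and 0. Scaled by total assigned reads, 13 of 69 members were lower in stillborn over alive (16.1% of all genes) and 0 of 72 higher in stillborn over spontaneous abortion (6.34%). Thinned to the smallest total, 0 of 70 were higher in spontaneous abortion over alive (6.11%) and 1 of 69 was lower in stillborn over spontaneous abortion (6.07%). Apart from the fold, the cause of these moves was not tested. As a share of RPKM without H19, IGF2 and the cytosolic ribosomal proteins the members held 0.477% (stillborn), 0.553% (spontaneous abortion) and 0.596% (alive), and as a share of recovered reads 0.211%, 0.218% and 0.243%, with the libraries in the same order as in the main shares.

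No paired analysis was possible because each status has 1 library and the labels carry no replicate numbers. Leaving out a replicate was not possible for the same reason. Motif and protein length descriptions were not run. Depth limits the genes with few reads, MRPL54, MRPS16 and MRPS18B, whose intervals are wide.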
